A study of Mus musculus with 6 samples.

Results

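The genes of the cytosolic ribosomal proteins, the proteins that make up the small (40S) and the large (60S) subunit of the ribosome outside mitochondria, were examined in the liver of pregnant mice. Genes were chosen by symbol: Rpl or Rps with a number and at most a short paralog suffix, together with *Rpsa*, *Rplp0*, *Rplp1* and *Rplp2*. Of the 56691 genes of the deposited table, 89 carried such a symbol, and 83 of them had a mean FPKM (reads relative to exonic length and to all counted reads of a library) of at least 1 over the 6 libraries. These 83 genes comprised 33 of the 40S subunit, 47 of the 60S subunit and 3 of the acidic stalk of the 60S subunit.

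Liver RNA was sequenced from 3 dams of the KPF group and 3 dams of the WPF group. KPF dams were h*Chrebp* KO mice, which carried floxed *Chrebp* alleles and an albumin promoter-driven Cre transgene (Alb-Cre), so that recombination was aimed at hepatocytes. Whether other liver cells kept the gene was not examined here. WPF dams lacked the Cre transgene. The study's methods name them *Chrebp* flox/flox, whereas the sample labels call them WT. All dams were pregnant, had been mated with *Chrebp* flox/flox males and were fed a high-fructose diet (HFrD) after mating, so that neither an effect of the diet nor one of pregnancy could be read from these libraries. Ages of the dams were not given in the sources used here. The KPF libraries were numbered 1 to 3 and the WPF libraries 2 to 4, and the libraries were taken as separate dams, so that p values measure the spread between these libraries.

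Ribosomal proteins are made in near equal numbers, since each cytosolic ribosome holds 1 copy of nearly all of them. Their mRNAs are abundant and short, and most begin with a C followed by a run of pyrimidines, the 5′ terminal oligopyrimidine (TOP) motif, through which mTORC1 and LARP1 set how strongly they are translated. In hepatocytes, which secrete most plasma proteins, ribosome supply is tied to growth factor and nutrient signals, and the level of these mRNAs is only one of the steps at which it is set.

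The start sites are shown first because the TOP motif is looked for there. RefSeq start windows (GRCm38.p6) were found for 61 of the 83 genes. A C followed by at least 4 pyrimidines from the annotated start base on was present in 13 of them (21.3%), against 3.01% of the 27025 genes with a window. The genes whose sequences come next were all taken from these 13. Each sequence has 30 bases with 15 bases before the start. The capitals mark the run of pyrimidines that begins at the annotated start. *Rpl28* lies at chr7:4792950-4792979 (plus strand), *Rpl35* at chr2:39005117-39005146 (minus), *Rpl38* at chr11:114668565-114668594 (plus), *Rps6* at chr4:86857353-86857382 (minus), *Rps10* at chr17:27635230-27635259 (minus) and *Rps27* at chr3:90213634-90213663 (minus).
Rpl28: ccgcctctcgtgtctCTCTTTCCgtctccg
Rpl35: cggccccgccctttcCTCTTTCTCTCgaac
Rpl38: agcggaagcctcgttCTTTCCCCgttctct
Rps6: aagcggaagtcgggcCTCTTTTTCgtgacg
Rps10: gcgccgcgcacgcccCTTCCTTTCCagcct
Rps27: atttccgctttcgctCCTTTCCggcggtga

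The paralogs *Rps27l* (chr9:66946071-66946100, plus) and *Rpl3l* (chr17:24727811-24727840, plus) were the 2 genes called between the groups below. The call used an unadjusted p and a fold limit, and neither gene passed the adjustment over all genes in that test. Neither had such a run at the annotated start shown. An annotated start can differ from the base at which transcription begins in liver, so the absence of these letters says nothing on the mRNA itself.
Rps27l: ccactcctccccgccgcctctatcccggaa
Rpl3l: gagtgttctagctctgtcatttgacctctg

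Further letters were searched on both strands of longer windows around the same starts. CTTTCC occurred within the 100 bases around the start in 20 of 61 genes (32.8%, against 10.3% of all genes) and on the coding strand alone in 18 (29.5%, against 5.43%). It overlaps many of the pyrimidine runs, as in *Rpl28*, *Rpl38*, *Rps10* and *Rps27* above. CCGGAAG, the core bound by ETS factors of the GABP kind, occurred within 150 bases in 19 genes (31.1%, against 7.52%) and on the coding strand in 15 (24.6%, against 4.04%). A match is a description of the sequence and not evidence of binding.

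*Mlxipl*, the gene of ChREBP, was lower in each KPF library, at 182, 709 and 860 CPM (counts scaled by the TMM-adjusted library sizes) against 974, 1277 and 891 CPM in WPF (log2 fold change -0.84, SE 0.53, adjusted p = 0.584 from edgeR, exact two-sided permutation p = 0.1). The counts cover the whole gene and do not separate the floxed exons. Without KPF replicate 1 the log2 fold change was -0.42, and without KPF replicate 3 it was -1.23.

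The libraries held between 10694496 and 14496630 counted reads. Reads on the 83 genes made up 2.12%, 1.27% and 1.86% of the counted reads in KPF replicates 1, 2 and 3, and 1.74%, 1.84% and 1.72% in WPF replicates 2, 3 and 4. KPF replicate 2 was the lowest of all libraries, KPF replicates 1 and 3 were the highest, and the groups overlapped. The mean share was 1.75% ± 0.434 (SD, n = 3) in KPF and 1.76% ± 0.0642 (SD, n = 3) in WPF, and the difference of -0.0133 percentage points was smaller than either SD. Counting error was small beside this spread, since the 95% Wilson interval of each share was at most 0.00863 percentage points to either side. Without KPF replicate 2, the KPF mean was 1.99% and the difference 0.225 percentage points. Without the 20 genes that took the most reads the difference was 0.255 percentage points, and in the share of summed TPM it was -0.191 percentage points. In liver tissue, fewer cells of a type and less RNA per cell cannot be told apart.

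Levels were first compared among the genes by FPKM, the scale that takes gene length into account. The median over the 83 genes was 96.3 FPKM, with 98.5 FPKM for the 40S, 93.3 FPKM for the 60S and 71.6 FPKM for the stalk genes. The highest was *Rpl36*, a 60S protein, at 1095 ± 384 FPKM in KPF and 973 ± 114 FPKM in WPF (SD, n = 3). It was followed by *Rps15* (40S, mean over the 6 libraries 661 FPKM), *Rpl38* (60S, 627 FPKM), *Rplp1* (stalk, 496 FPKM) and *Rpl19* (60S, 446 FPKM). For *Rps15* the group means were 667 ± 129 FPKM in KPF and 654 ± 27.2 FPKM in WPF, and for *Rpl38* they were 673 ± 278 and 580 ± 93.7 FPKM (SD, n = 3), so that these neighbours in the order did not differ beyond their spread.

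The lowest genes were the paralogs *Rpl3l*, *Rpl7l1* and *Rps4l* with means of 5.13, 6.89 and 7.23 FPKM, followed by *Rpl15* with 21.2 FPKM. The mean of *Rpl3l* came from KPF replicate 2 (29.9 FPKM), and the other libraries had at most 0.40 FPKM. Other paralogs lay higher, such as *Rpl6l* with 25.6, *Rpl22l1* with 35.2 and *Rps27l* with 145 FPKM. A further 6 genes that matched by name fell under the minimum. *Rps3a2* (0.883 FPKM), *Rps3a3* (0.608 FPKM), *Rpl32l* (0.435 FPKM) and *Rpl39l* (0.0317 FPKM) had few reads, and *Rpl10l* and *Rps12l1* had none in any library. *Rpl10l* and *Rpl39l* are known as testis-enriched paralogs of *Rpl10* and *Rpl39*.

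The spread of FPKM among genes of proteins made in equal numbers was wide, and the lengths behind it moved with the levels. The exonic lengths in the table ran from 383 bases (*Rpl36*) to 6270 bases with a median of 1770 bases, whereas the coding transcript of these genes in GENCODE M21 had a median of 751 bases. The exonic length was a median of 2.35 times the length of that transcript. Across the 83 genes, mean FPKM and exonic length had a Spearman rho of -0.59, given as a description because both share the length. Levels are therefore compared between genes only in broad terms, and the comparison between groups rests on the counts of each gene.

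Counts of the 10866 genes that reached this mean FPKM were then compared between KPF and WPF with the quasi-likelihood test of edgeR. A gene counted as called where its unadjusted p lay under 0.05 and its fold change reached 1.5. Of the 83 ribosomal protein genes 1 was called higher in KPF, against 5.83% of all genes tested, and 1 was called lower, against 3.98%. The gene called higher was *Rpl3l* and the gene called lower *Rps27l*. *Rpl3l* reached the minimum of FPKM through KPF replicate 2 alone, the library that also made it high, with 29.9 FPKM there and 0.05 to 0.40 FPKM in the others, so its call carries no weight for the group. At the unadjusted p alone, the same 2 genes passed, against 10.8% of all genes. With Benjamini-Hochberg adjustment over all genes, none of the 83 passed in edgeR, where 0% of all genes did. None of the 83 passed with DESeq2 or with limma on log2(FPKM + 1) either, *Rpl3l* did in edgeR when no filter on low values was set, and the lowest adjusted p from edgeR among the 83 was 0.430.

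The whole group lay close to 0. The median log2 fold change of the 83 genes was 0.06, beside 0.02 over all genes tested, and 49 were positive and 34 negative. The absolute log2 fold change was under 0.5 in 74 genes (89.2%, against 72.2% of all genes tested), and it was smaller than the gene's own standard error (SE) in 58. The median SE was 0.31. Scaled to library totals in place of TMM, the median was -0.07 beside -0.12 over all genes, so that its sign turned with the scaling while it stayed within 0.05 of all genes.

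**Figure D1:**
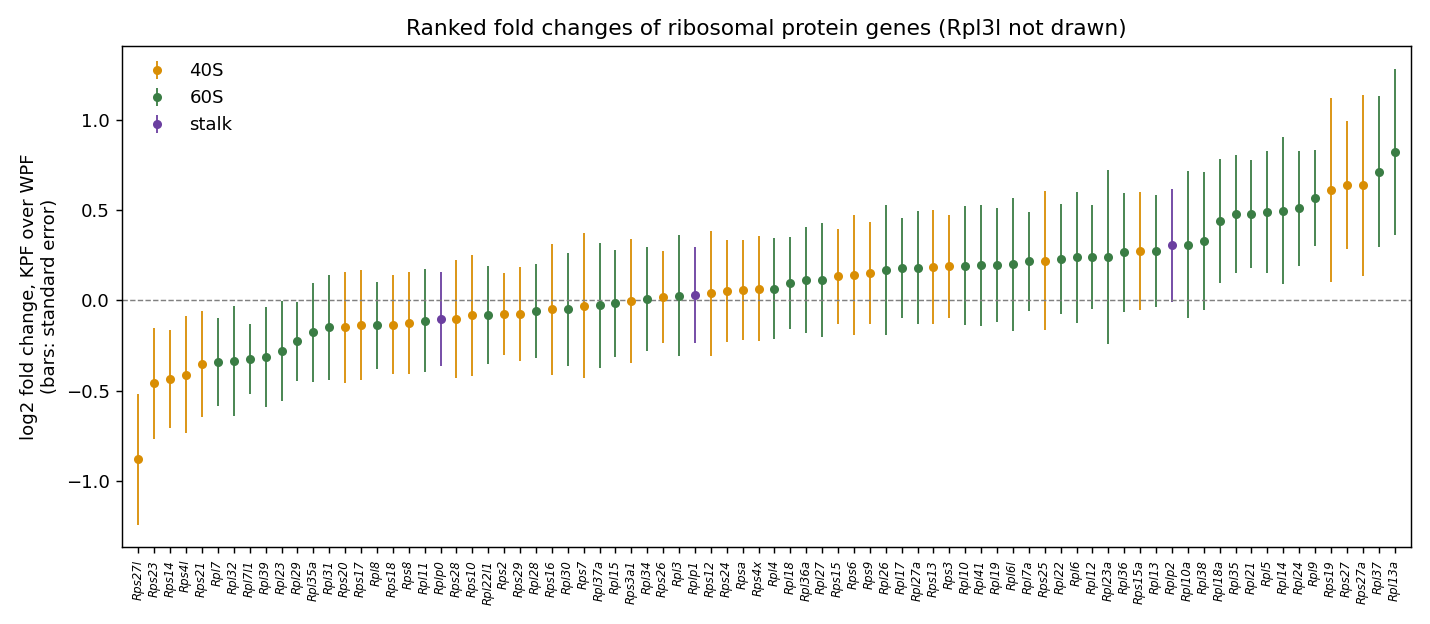
Log2 fold change of KPF over WPF (y axis) for ribosomal protein genes in rank order (x axis), with the standard error from edgeR as bars and the subunit by colour. *Rpl3l* (6.40) is not drawn because it lies far above the axis, and genes not reported here are left out. *Rps27l* stands lowest at -0.88, and 58 of the 83 genes lie within 1 standard error of 0.

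The 33 genes of the 40S subunit had a median log2 fold change of -0.03 (15 positive, 18 negative), with *Rps27l* called lower and none called higher. The 47 genes of the 60S subunit had a median of 0.18 (32 positive, 15 negative), with *Rpl3l* called higher and none called lower. The 3 stalk genes, whose proteins recruit the elongation factors, had log2 fold changes of -0.10 (*Rplp0*), 0.03 (*Rplp1*) and 0.31 (*Rplp2*), and their groups overlapped. Without KPF replicate 2 the medians were 0.18 for the 40S and 0.41 for the 60S genes. The difference between the subunits was not tested.

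Libraries of the same group differed widely in these genes. Against the mean of each gene over the 6 libraries, on a log2 scale of CPM, the median of the 83 genes was 0.25, -0.46 and 0.28 in KPF replicates 1, 2 and 3, and 0.17, -0.02 and -0.21 in WPF replicates 2, 3 and 4. KPF replicate 2 was the lowest of the 6 libraries in 63 of the 83 genes (75.9%), whereas it was the lowest in 19.9% of all genes tested. Among the KPF libraries it was the lowest in 77 genes (92.8%, against 32.8%), and *Rpl3l* was the only one of the 83 genes that stood above its own mean there. The highest library was KPF replicate 1 in 33 genes, KPF replicate 3 in 28 and WPF replicate 2 in 19.

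**Figure D2:**
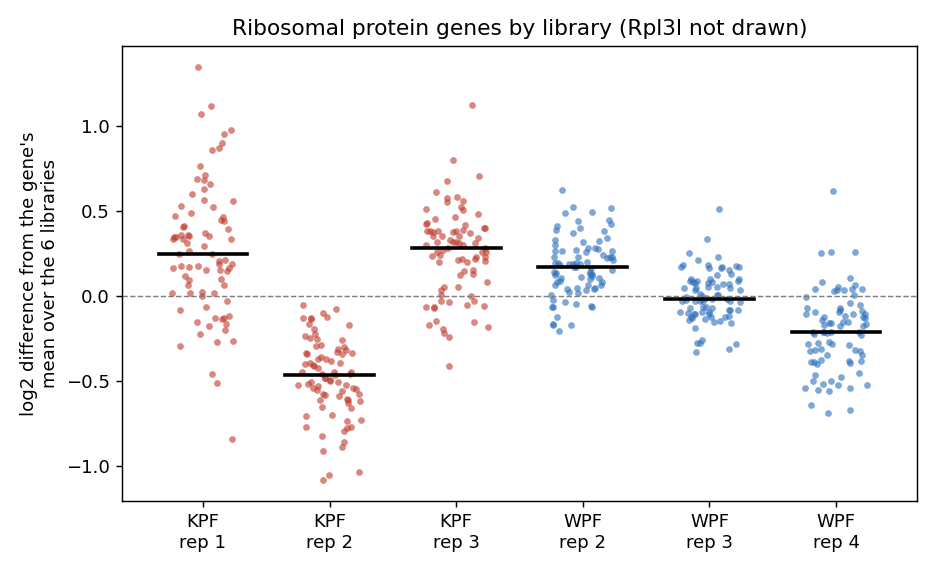
Difference of each ribosomal protein gene from its own mean over the 6 libraries, on the log2 scale of CPM (y axis), by library (x axis). Each point is a gene, red for KPF and blue for WPF, and the black line is the median of all 83 genes; *Rpl3l* is not drawn. The median is -0.46 in KPF replicate 2 and between -0.21 and 0.28 in the other libraries.

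The KPF libraries were spread more widely than the WPF libraries in 73 of the 83 genes (88.0%, against 62.9% of all genes). The median range over the 3 libraries was 0.91 in KPF and 0.42 in WPF on the log2 scale. The order within WPF differed between scales. By CPM, WPF replicate 2 was the highest and WPF replicate 4 the lowest of the group in 61 genes (73.5%, against 21.8% of all genes tested). The shares of counted reads given above were nearly level in WPF, and the TMM factors of these libraries were 0.888, 1.09 and 1.18. KPF replicate 2 was the lowest on each denominator: with 1.29% of the reads on tested genes, with 2.32% of the reads left without the 20 genes that took the most reads, and with 1.54% of the summed TPM.

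Other genes that moved in KPF replicate 2 were looked for in marker lists. In this library, 13 genes of skeletal muscle, among them *Acta1* (skeletal actin), *Ckm* (muscle creatine kinase), *Myh4* (fast myosin) and *Ttn* (titin), summed to 6800 CPM, against 8.19 to 21.4 CPM in the other libraries. All 12 of them that were tested were called higher in KPF with this library, against 5.83% of all genes tested. It supplied nearly all of their reads, both for the minimum of FPKM and for the call. These calls therefore carry no weight for the group. Without this library none was called higher, against 5.06% of all genes tested, and 3 were called lower, against 4.48%. Their median log2 fold change was then -1.78. The values left rest on few reads. The 5 genes of the heart list summed to 11.5 CPM in KPF replicate 2, to 28.3 CPM in KPF replicate 1 and to 2.28 to 9.44 CPM in the others, and *Myh6*, the defining heart myosin, stood at 0.179 CPM in KPF replicate 2. None of the 2 heart genes tested was called. The lists of muscle genes were chosen after these values had been seen. The hepatocyte markers, *Alb* among them at 69060 CPM, summed to 88000 CPM in this library, against 94680 to 187000 CPM in the others. This sum is mostly *Alb*. Against the mean of each gene, the median of these markers was -0.18 in KPF replicate 2. It was lowest in KPF replicate 1 (-0.40) and between -0.11 and 0.60 in the remaining libraries. The part of muscle RNA in the low level of the 83 genes was not tested.

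*Rpl3l* (chromosome 17, 24946794 to 24955117, GRCm39, plus strand) encodes a paralog of RPL3 that is used in ribosomes of skeletal and heart muscle. Its counts were 7, 558 and 3 reads in KPF replicates 1, 2 and 3, and 4, 1 and 3 reads in WPF replicates 2, 3 and 4. By CPM it stood at 50.02 in KPF replicate 2 and at or under 0.676 in every other library, and the groups overlapped. The log2 fold change was 6.40 (SE 2.02) with an adjusted p of 0.430 from edgeR, and the exact two-sided permutation p was 0.2. Without KPF replicate 2 it was 1.28 (SE 0.96) and no longer called. *Rpl3l* was thus a gene of 1 library, the one that also held the muscle mRNAs.

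*Rpl3* itself, the widely used gene of the pair, stood at 156, 68.9 and 106 CPM in the KPF libraries, against 120, 119 and 84.6 CPM in the WPF libraries. Its log2 fold change was 0.03 (SE 0.34), and the groups overlapped. *Rpl3l* made up 58.4% of the summed FPKM of the pair in KPF replicate 2 and at most 0.836% in the other libraries.

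*Rps27l* (chromosome 9, 66853368 to 66856798, GRCm39, plus strand) encodes a paralog of the 40S protein RPS27 and is known as a target of p53. Its counts were 625, 643 and 1359 reads in KPF replicates 1, 2 and 3, and 1776, 1929 and 2816 reads in WPF replicates 2, 3 and 4. By CPM these were 60.3, 57.6 and 132 in KPF and 156, 137 and 167 in WPF. All KPF libraries lay under all WPF libraries, although KPF replicate 3 came close to WPF replicate 3. The log2 fold change was -0.88 (SE 0.36, unadjusted p = 0.0427, adjusted p = 0.453 in edgeR). The exact two-sided permutation p was 0.1, the smallest that 3 against 3 can give. Without KPF replicate 2 it was -0.68 (SE 0.36) and not called. Leaving out KPF replicate 1 or WPF replicate 2, 3 or 4 also ended the call, with log2 fold changes of -0.69, -0.87, -0.95 and -0.82, whereas without KPF replicate 3 it was -1.38. The call also ended with a minimum of 5 for the mean FPKM (-0.87).

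*Rps27*, the other gene of the pair, went the other way in value. It stood at 313, 136 and 221 CPM in the KPF libraries, against 178, 143 and 110 CPM in the WPF libraries, with overlap, and its log2 fold change was 0.64 (SE 0.36, adjusted p = 0.547 from edgeR). *Rps27l* made up 19.8%, 35.1% and 43.4% of the summed FPKM of the pair in KPF, and 52.8%, 55.2% and 65.9% in WPF. The mean was 32.7% ± 11.96 in KPF and 58.0% ± 7.01 in WPF (SD, n = 3), with no overlap and an exact two-sided permutation p of 0.1, again the smallest possible. Reads of *Rps27* are less certain than those of *Rps27l*. Of the 100-base windows of its coding transcript, 98.4% occurred also in a transcript of another gene, and none of the windows of *Rps27l* did.

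**Figure D3:**
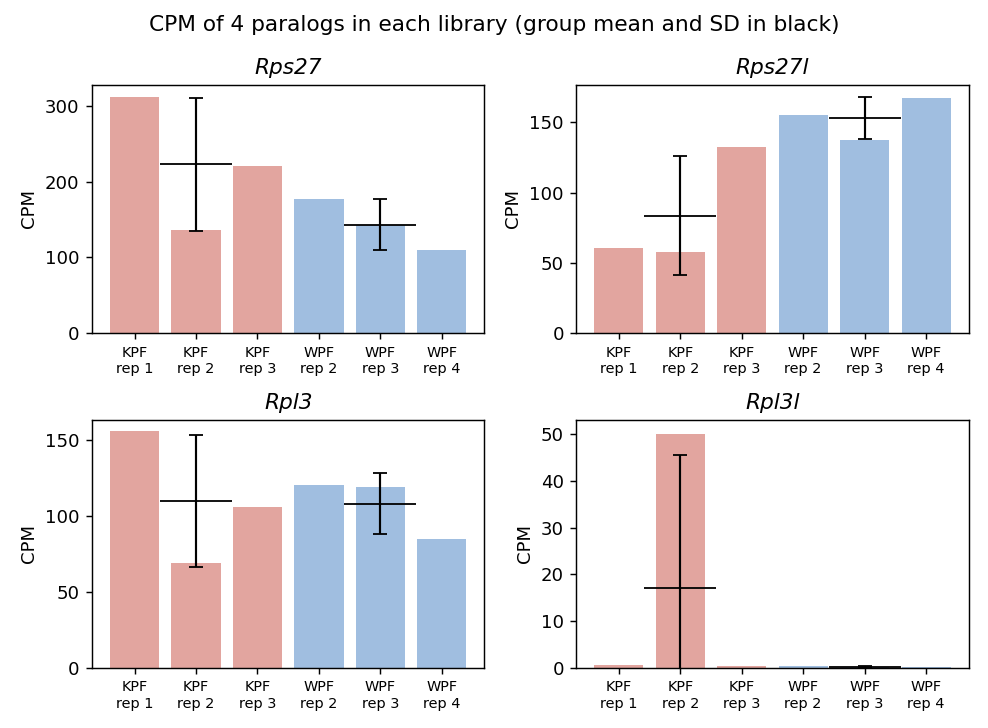
CPM (y axes, each from 0) of *Rps27*, *Rps27l*, *Rpl3* and *Rpl3l* in each library (x axes), red for KPF and blue for WPF, with the group mean and SD in black (n = 3; the SD bar of *Rpl3l* is cut at 0). *Rps27l* is lower in each KPF library (57.6 to 132 CPM) than in each WPF library (137 to 167 CPM), and *Rpl3l* reaches 50.02 CPM in KPF replicate 2 alone.

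In the other paralog pairs the shares of the copies overlapped between the groups. *Rpl7l1* stood at 25.1, 18.7 and 20.9 CPM in the KPF libraries, against 29.3, 26.9 and 24.7 CPM in the WPF libraries, with overlap between KPF replicate 1 and WPF replicate 4, and its log2 fold change was -0.32 (SE 0.19). *Rpl7* stood at 184, 173 and 212 CPM in the KPF libraries, against 289, 213 and 218 CPM in the WPF libraries. These groups did not overlap, by a margin of about 1 CPM, and the log2 fold change was -0.34 (SE 0.24). *Rpl7l1* took 8.06% ± 1.26 of the FPKM of its pair in KPF and 8.03% ± 0.813 in WPF (SD, n = 3).

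*Rpl22*, a 60S protein, and its paralog *Rpl22l1* had log2 fold changes of 0.23 (SE 0.30) and -0.08 (SE 0.27). *Rpl22l1* made up 39.8%, 48.4% and 46.0% of the pair in KPF and 53.2%, 44.9% and 49.9% in WPF. The groups overlapped, and the exact two-sided permutation p was 0.3. For *Rpl39*, the paralog *Rpl39l* was below the minimum, with 2 reads in 1 WPF library.

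Besides *Rps27l* and *Rpl7*, *Rps14* was the third gene whose KPF libraries all lay below the WPF libraries, and *Rpl9* the only gene with the reverse. These were 3 of the 83 genes, against 8.15% of all genes, and 1 of the 83, against 7.55%. *Rps14*, a 40S protein, stood at 195, 172 and 193 CPM in the KPF libraries, against 330, 228 and 199 CPM in the WPF libraries, with a log2 fold change of -0.43 (SE 0.27). *Rpl9*, a 60S protein, stood at 167, 95.1 and 123 CPM in the KPF libraries, against 92.6, 85.7 and 81.7 CPM in the WPF libraries, with a log2 fold change of 0.57 (SE 0.27). Neither was called, with adjusted p values from edgeR of 0.581 and 0.484.

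The next genes by p on the higher side were *Rpl13a* and *Rpl37*, both of the 60S subunit. *Rpl13a* stood at 156, 42.5 and 64.5 CPM in the KPF libraries, against 54.1, 53.3 and 41.4 CPM in the WPF libraries, so that KPF replicate 1 stood apart and the groups overlapped. *Rpl37* stood at 618, 193 and 346 CPM in the KPF libraries, against 247, 255 and 204 CPM in the WPF libraries, with KPF replicate 2 the lowest of all. The log2 fold changes were 0.82 (SE 0.46) and 0.71 (SE 0.42), neither called. Without KPF replicate 1 they were 0.11 and 0.20, and without KPF replicate 2 they were 1.15 and 1.03.

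On the lower side, *Rps23* of the 40S subunit, close to the decoding site of the ribosome, stood at 69.3, 63.9 and 127 CPM in the KPF libraries, against 122, 116 and 119 CPM in the WPF libraries, with KPF replicate 3 the highest of all libraries. The log2 fold change was -0.46 (SE 0.31), not called.

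Without KPF replicate 2, more of the genes were called. Of the 83 genes 9 were then called higher, against 5.06% of all genes tested, and none was called lower, against 4.48%. At this setting 66 of the 83 log2 fold changes were positive, and the median of the 83 was 0.28 beside -0.01 over all genes. KPF replicate 2 was the lowest KPF library in 77 of the 83 genes. The rise of most values therefore followed from the choice of the library left out. The 9 genes were *Rps27a*, whose product is cut into RPS27A and ubiquitin, *Rps19* and *Rps27* of the 40S subunit, and *Rpl5*, *Rpl9*, *Rpl13a*, *Rpl24*, *Rpl35* and *Rpl37* of the 60S subunit. *Rps27a*, *Rps19*, *Rpl5*, *Rpl24* and *Rpl35* are named only because they appeared here.

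*Rps27a* stood at 586, 153 and 548 CPM in the KPF libraries, against 304, 329 and 194 CPM in the WPF libraries. *Rps19* stood at 361, 82.2 and 257 CPM in the KPF libraries, against 179, 172 and 107 CPM in the WPF libraries. In both genes KPF replicates 1 and 3 were above every WPF library and KPF replicate 2 was below every one. Their log2 fold changes were 0.64 (SE 0.50) and 0.61 (SE 0.51) with all libraries, and 1.03 (SE 0.32) and 1.01 (SE 0.33) without KPF replicate 2. No gene of the 83 passed the adjustment over all genes in that fit either.

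**Figure D4:**
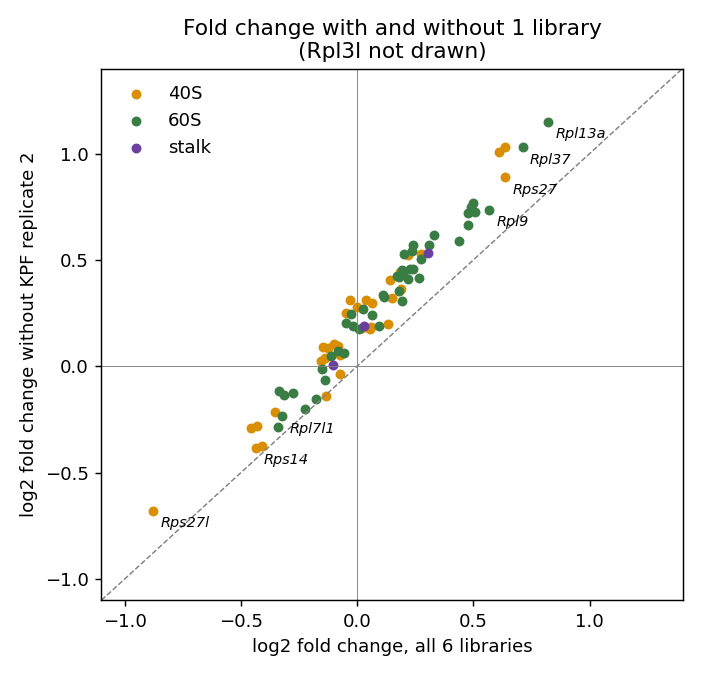
Log2 fold change of KPF over WPF with all 6 libraries (x axis) and without KPF replicate 2 (y axis) for the ribosomal protein genes, coloured by subunit; *Rpl3l* is not drawn. The dashed line marks equal values. All drawn points but *Rps18* lie above it, and the median of the 83 genes is 0.06 on the x axis and 0.28 on the y axis. The library left out was the lowest of KPF in 77 of the 83 genes, so most points had to lie above the line.

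Leaving out other libraries moved the calls too. Without KPF replicate 3, 4 of the 83 genes were called, *Rpl3l* higher and *Rps21*, *Rps23* and *Rps27l* lower, against 14.9% of all genes in either direction. *Rpl3l* alone was called without KPF replicate 1 (against 7.12%), without WPF replicate 2 (5.9%) and without WPF replicate 3 (5.25%). Without WPF replicate 4, *Rpl3l* and *Rps4l* were called, against 10.7%. *Rps21* and *Rps4l* are named only because of these fits.

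Reads of ribosomal protein mRNAs can also stem from processed copies of the genes, of which the mouse genome holds many. Coding transcripts were found for 81 of the 83 genes. A median of 39.1% of the 100-base windows of a transcript occurred in a transcript of another gene, and in 31 genes it was over 50%. In 7 genes none was shared, among them *Rpl22*, *Rpl32*, *Rpl3l*, *Rps21*, *Rps27l* and *Rps3*. The 2 genes called were both among these 7. For *Rpl9*, *Rpl13a*, *Rpl24* and *Rps27a*, 79.2%, 55.2%, 80.1% and 69.1% of the windows were shared. Their values are therefore uncertain where a read could match other copies as well.

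Proteins bound to the ribosome or made as fusions gave values near 0. *Fau*, whose product yields RPS30, stood at 197, 119 and 205 CPM in the KPF libraries, against 192, 168 and 143 CPM in the WPF libraries (log2 fold change 0.05, SE 0.29). *Rack1*, a 40S-bound scaffold, had a log2 fold change of -0.11 (SE 0.29). Neither gene was called.

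Of 23 further genes known for TOP mRNAs, such as elongation factors, 1 was called higher, against 5.83% of all genes tested. None was called lower, against 3.98%. The median log2 fold change was -0.11, with 7 values positive and 16 negative. The called gene was *Gas5*, a non-coding host of small nucleolar RNAs, at 330, 166 and 154 CPM in the KPF libraries, against 94.6, 135 and 120 CPM in the WPF libraries (log2 fold change 0.90, SE 0.35, adjusted p = 0.444 from edgeR). Every KPF library was above every WPF library, and KPF replicate 1 stood apart. The call ended without KPF replicate 1 (0.46), without WPF replicate 2, 3 or 4 (0.77, 1.02 and 0.91) and on library totals (0.76). In KPF replicate 2 the list had a median of -0.25 against the mean of each gene, on the same side as the 83 genes.

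Of 52 tested genes of ribosome biogenesis 1 was called higher, against 5.83% of all genes tested, and 1 lower, against 3.98%. The median log2 fold change was 0.09. *Nop56*, a core protein of box C/D small nucleolar particles, stood at 307, 120 and 115 CPM in the KPF libraries, against 86.3, 99.8 and 53.2 CPM in the WPF libraries (log2 fold change 1.18, SE 0.45). Without KPF replicate 1 its log2 fold change was 0.56 and the call ended, as it did without WPF replicate 2 (1.24) or 4 (0.95). *Eif6*, which keeps the 60S subunit from joining early, stood at 9.08, 6.37 and 5.75 CPM in the KPF libraries, against 10.4, 10.1 and 12.5 CPM in the WPF libraries (log2 fold change -0.64, SE 0.27), and its call held without KPF replicate 1 (-0.86) but ended without any other single library (-0.51 to -0.70).

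Among 20 tested genes that control the making or translation of ribosomal protein mRNAs, *Rps6kb2*, an S6 kinase, was called higher (log2 fold change 0.67, SE 0.27) and *Myc*, a transcription factor that drives ribosome biogenesis, was called lower (-0.86, SE 0.31). The shares called over all genes tested were 5.83% higher and 3.98% lower. *Myc* stood at 4.06, 3.41 and 4.58 CPM in the KPF libraries, against 7.53, 5.41 and 8.96 CPM in the WPF libraries, with no overlap. The call of *Myc* ended without KPF replicate 2 (-0.76) or WPF replicate 2 (-0.84) or 4 (-0.70), and that of *Rps6kb2* without KPF replicate 1 (0.42), without any WPF library (0.61 to 0.73) and on library totals (0.56). The list had a median of -0.08. Adjusted p values of the called genes in these lists lay between 0.430 and 0.456.

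Mitochondrial ribosomal proteins, which belong to a separate ribosome, served as a comparison. Of 77 tested, *Mrpl41* was called higher (log2 fold change 0.71, SE 0.26), against 5.83% of all genes tested. *Mrpl20* was called lower (-0.65, SE 0.24), against 3.98%, and the median of the 77 was 0.02. The call of *Mrpl41* held without KPF replicate 3 and ended without any other single library (0.50 to 0.73) and on library totals (0.60). That of *Mrpl20* ended without KPF replicate 1 (-0.66) or 3 (-0.63) or WPF replicate 2 (-0.41). In KPF replicate 2 their median against the mean of each gene was 0.13, where that of the cytosolic genes was -0.46.

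Markers of other cells were set beside these values. Of 10 endothelial and stellate genes, *Pecam1*, *Col3a1* and *Reln* were called higher in KPF, with log2 fold changes of 0.75 (SE 0.22), 1.54 (SE 0.27) and 0.73 (SE 0.26). None was called lower, and the shares over all genes tested were 5.83% higher and 3.98% lower. In this list 7 values were positive and 3 negative, with a median of 0.61. The call of *Reln* ended without KPF replicate 1 (0.45), WPF replicate 2 (0.65) or 4 (0.70), and on library totals those of *Reln* and *Pecam1* ended (0.60 and 0.62). Summed CPM of this list was 264 to 498 in KPF and 213 to 270 in WPF. Of the hepatocyte, Kupffer cell, red cell, lymphocyte and dividing cell lists no gene was called, and their medians were -0.19, -0.19, 0.46, 0.60 and 1.54. Dividing cell genes summed to 334 CPM in KPF replicate 3 and to 21.7 to 91.6 CPM elsewhere. Their part in the values of the 83 genes was not tested.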

How the data were processed

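The deposited table gives, for each Ensembl gene, whole-number read counts and FPKM values computed by the authors from those counts, with exonic lengths and GRCm39 coordinates. Per the labels and the study's methods, poly(A) RNA of liver was fragmented and randomly primed. The submitters' processing notes name cutadapt 1.9.1, HISAT2 2.2.1, HTSeq 0.6.1 and DESeq2; strand settings are not given in the sources used here.

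Symbols came from GENCODE M21 (52073 of 56691 IDs matched). Genes that reached a mean FPKM of 1 were fitted together in edgeR 4.0.16 (R 4.3.3, TMM, quasi-likelihood, Benjamini-Hochberg over 10866 genes). CPM are counts over TMM-scaled library sizes, and deviations used log2(CPM + 0.5). TPM were FPKM rescaled to sum equally. Alternatives used DESeq2 1.42.0, limma 3.58.1, other filters and scalings, a length correction and leaving out each library. The edgeR fit was tested on simulated counts in which 200 of the 10866 genes were changed 2-fold. The call recovered 64.5% of these and took in 4.69% of the unchanged genes. RefSeq and GENCODE M21 sequences are GRCm38 and were joined to the table by symbol or ID only.

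The genes, lists and tests were chosen with earlier results of these data known. Genes named are the 5 of smallest p in each direction, the 5 of highest FPKM, the paralog pairs, *Fau*, *Rack1*, *Mlxipl* and up to 5 called genes per list. Some genes that this rule names are not reported here. Other genes are said to have been named after their values were seen.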

Additional observations from a re-analysis of the deposited data

How the results depend on the processing

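Over 12 other processings and 6 fits without 1 library, the number of the 83 genes called stayed at 2 in 6 of 18. It was 1 with DESeq2 (which gave *Rpl3l* no p) and with edgeR's own filter (which dropped *Rpl3l*). The same number came with limma on log2(FPKM + 1) or log2(FPKM + 0.1). It was also 1 with a mean FPKM of at least 5 and with the replicate number as a block. These last 2 keep *Rpl3l* and lose *Rps27l*, at -0.87 and -0.74. With limma on log2(TPM + 1) it was 4, all lower, among them *Rps14*, *Rps23* and *Rps27l*. In that fit 925 of the 10866 genes tested were called lower and 155 higher. Leaving out single libraries gave 1 to 9. Called genes in the related lists numbered 7, and 11 when scaled to library totals, 12 with limma on log2(FPKM + 0.1), 14 on log2(TPM + 1), 11 with no filter, 3 with the replicate block and 1 to 15 without single libraries. The median log2 fold change of the 83 genes ran from -0.06 to 0.28 without single libraries, and the difference in the share of reads from -0.198 to 0.225 percentage points (0.255 and -0.191 on other denominators).

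The balance of calls over all genes moved with the scaling, from 634 higher and 432 lower with TMM to 371 and 716 on library totals. Where test and scale changed together it was 288 and 700 for limma on log2(FPKM + 0.1), 237 and 540 on log2(FPKM + 1), 155 and 925 on log2(TPM + 1). The median over all genes moved to -0.12 with library totals and -0.21 on log2(TPM + 1), where the 83 genes had -0.07 and -0.21. With no filter 286 genes passed the adjustment, *Rpl3l* among them, and with DESeq2 156, none of the 83.

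Some values turned sign, among them *Rpl13a*, *Rpl38* and *Rpl36*, at 0.82, 0.33 and 0.27 in the edgeR test. *Rplp1* was -0.11 with the length trend removed, -0.089 on library totals, -0.11 for limma on log2(FPKM + 0.1) and on log2(FPKM + 1), -0.23 on log2(TPM + 1) and -0.036 with no filter. In that order *Fau* was -0.065, -0.072, -0.11, -0.10, -0.22 and -0.017. *Rpl3* was -0.0034 with edgeR's filter, and -0.086, -0.16, -0.15, -0.27 and -0.041 from library totals on. *Rps15* was -0.0070 with the length trend removed, and on log2(TPM + 1) *Rps15*, *Rpl19* and *Rpl22* were -0.11, -0.093 and -0.054. With the replicate block *Rpl13a*, *Rpl36*, *Rps15*, *Rpl38*, *Rplp1*, *Rpl19*, *Rpl3*, *Rpl22* and *Fau* were -0.037, -0.19, -0.12, -0.22, -0.13, -0.10, -0.49, -0.13 and -0.20. That block takes up KPF replicate 1 and WPF replicate 4, whose numbers occur in 1 group only. Its group difference therefore rests on replicates 2 and 3 of both groups. Without single libraries the log2 fold change ran from -0.035 to 0.46 for *Rpl36*, -0.013 to 0.27 for *Rps15*, -0.065 to 0.19 for *Rplp1*, -0.31 to 0.27 for *Rpl3*, -0.24 to 0.12 for *Rpl22l1*, -0.087 to 0.25 for *Fau* and -0.36 to 0.071 for *Rack1*. The cause was not tested.

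Replicate numbers 2 and 3 occur in both groups. Libraries of the same number did not deviate together over the genes (r = 0.066 and -0.045). These correlations cannot decide whether the number pairs dams, and the labels do not say. With the replicate block the median of the 83 genes was -0.20.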

Other observations

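Genes named as pseudogene copies of ribosomal protein genes numbered 300, of which 61 had a mean FPKM of at least 1. They took 0.0245% to 0.0389% of the counted reads, the least in KPF replicate 2, where the parent genes were also lowest. Of the 61 copies 3 were called higher in KPF (*Rps6-ps3*, log2 fold change 1.68, *Rps13-ps2*, 1.38, and *Rpl21-ps11*, 1.02), against 5.83% of all genes tested. Only 1 was called lower (*Rpl17-ps4*, -2.30), against 3.98%, and none of the copies passed the adjustment over all genes. *Rps6-ps3* stood at 2.90, 2.24 and 2.43 CPM in the KPF libraries, against 0.876, 0.641 and 0.831 CPM in the WPF libraries, while *Rps6* itself stood at 173, 97.4 and 230 CPM and at 155, 141 and 158 CPM (log2 fold change 0.14, SE 0.33).

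The genes *Rpl37rt*, *Rps27rt* and *Rpl36al*, whose names fall outside the rule, were looked at after the values of *Rpl37* and *Rps27* had been seen. *Rpl37rt* stood at 80.3, 32.5 and 47.9 CPM in the KPF libraries, against 32.8, 33.8 and 27.2 CPM in the WPF libraries and was called higher (log2 fold change 0.78, SE 0.33, adjusted p = 0.461 from edgeR). *Rps27rt* had a log2 fold change of 0.90 (SE 0.44) and was not called, and *Rpl36al* one of -0.20 (SE 0.25). *Rpl37* and *Rps27* share 21.5% and 98.4% of their 100-base windows with other genes. The values of parents and copies are therefore uncertain where a read could match both.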
